A study of Mus musculus with 2 samples.

Results

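Skeletal muscle spots were the capture spots of 2 spatial transcriptomics libraries in which 12 genes of striated muscle made up at least 5% of the RNA molecules counted. The 12 genes were Acta1, Ckm, Myh1, Myh2, Myh4, Tnnt3, Tnnc2, Tnni2, Mylpf, Actn3, Atp2a1 and Mb, and spots with fewer than 100 unique molecular identifiers (UMIs, each standing for 1 captured molecule) were left out. Of 6464 spots in all, 5745 had that depth and 272 were muscle spots, of which 250 were flat and 22 micropillar. One library came from nude mice that carried a flat implant and the other from nude mice that carried an implant with micropillars, a surface of small posts. Both groups share the nude genotype, which lacks a thymus and mature T cells, and both libraries were made from fixed and embedded sections of a tissue labelled as bone. Strain, age, sex, the site and time of implantation and the number of mice per section were not given in the sources used here. Each group had 1 library, so no difference between them has a replicate check and no p-value is given. Intervals are 95% and cover counting error only, and 1 spot may cover more than 1 cell.

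Skeletal muscle fibres are long multinucleate cells packed with sarcomeres, in which myosin heavy chains pull on actin filaments when calcium reaches the troponin complex. Mouse limb muscle is built mainly from fast fibres of types IIA, IIX and IIB, marked by Myh2, Myh1 and Myh4, and from fewer slow fibres marked by Myh7. IIA fibres rely more on mitochondria and IIB fibres more on glycolysis, with IIX fibres between them. Muscle lies against bone, joined to it by tendon, and each fibre is wrapped in a thin collagen sheath, the endomysium.

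Transcription of many muscle genes is driven by factors that bind short motifs, among them the E-box (CANNTG), bound by the MyoD family, and the CArG box, bound by serum response factor. The 200 bases before the transcription start are shown for Acta1 and Myh2 of the 12 genes and for Ckmt2 and Casq1, which had the highest ratios of muscle to other flat spots outside them, because these genes were high together in the muscle spots. Genes whose window lies inside their own annotated span were passed over. Sequences are RefSeq's for build GRCm38.p6, 5′ to 3′ on the gene's strand, and capitals mark a match to the E-box, MEF2 or CArG motif on either strand. Acta1 lies at chr8:123894776-123894975 on the minus strand, Myh2 at chr11:67170827-67171026 on the plus strand, Ckmt2 at chr13:91876886-91877085 on the minus strand and Casq1 at chr1:172219896-172220095 on the minus strand.
Acta1: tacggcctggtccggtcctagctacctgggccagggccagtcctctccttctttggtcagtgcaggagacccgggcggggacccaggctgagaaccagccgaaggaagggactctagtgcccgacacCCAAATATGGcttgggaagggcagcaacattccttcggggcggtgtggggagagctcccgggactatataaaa
Myh2: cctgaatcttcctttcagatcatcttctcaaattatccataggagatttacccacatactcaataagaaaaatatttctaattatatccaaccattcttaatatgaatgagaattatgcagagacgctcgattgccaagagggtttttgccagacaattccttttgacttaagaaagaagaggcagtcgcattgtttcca
Ckmt2: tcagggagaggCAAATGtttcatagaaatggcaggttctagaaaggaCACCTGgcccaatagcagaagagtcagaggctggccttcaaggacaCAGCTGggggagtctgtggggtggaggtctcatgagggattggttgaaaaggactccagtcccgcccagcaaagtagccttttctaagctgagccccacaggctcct
Casq1: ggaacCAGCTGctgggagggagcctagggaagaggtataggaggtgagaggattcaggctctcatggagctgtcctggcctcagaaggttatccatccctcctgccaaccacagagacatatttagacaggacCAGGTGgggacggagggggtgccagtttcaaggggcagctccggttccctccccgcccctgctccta
The Acta1 stretch holds 1 CArG box, the Ckmt2 stretch 3 E-boxes and the Casq1 stretch 2 E-boxes, while the Myh2 stretch holds no match to these motifs. In windows from 250 bases before to 50 after the start, the palindromic E-box CAGCTG was found in 15 of the 27 muscle genes with a RefSeq entry, of 32 looked up, which is 55.6% against 16.1% of 27025 genes. The wider pattern CANNTG, which CAGCTG is one form of, was found in 85.2% against 72.1%, the MEF2 motif in 11.1% against 3.26% and the CArG box in 7.41% against 1.57%. A match is a description of letters and not of a bound factor.

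Muscle spots were a larger share of the flat section and a small share of the micropillar section. They made up 9.32% (8.25 to 10.5) of 2681 kept flat spots and 0.718% (0.451 to 1.09) of 3064 kept micropillar spots. Which part of each animal a section cut through was not given in the sources used here, so the section and the implant cannot be told apart for this count. The spots were shallow. A flat muscle spot had 164.5 UMIs and 116 genes at the median, and a micropillar one 284.5 UMIs and 231 genes, while the medians of other spots were 692 and 838.5 UMIs. The median muscle share of a muscle spot was 18.7% among flat spots, with a range of 5.42% to 37.5%, and 8.42% in the micropillar library, with a range of 5.45% to 19.3%. Micropillar muscle spots thus sat nearer the threshold. A lower share can come from fewer fibres under the spot or from less RNA per fibre, and these cannot be told apart.

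**Figure D1:**
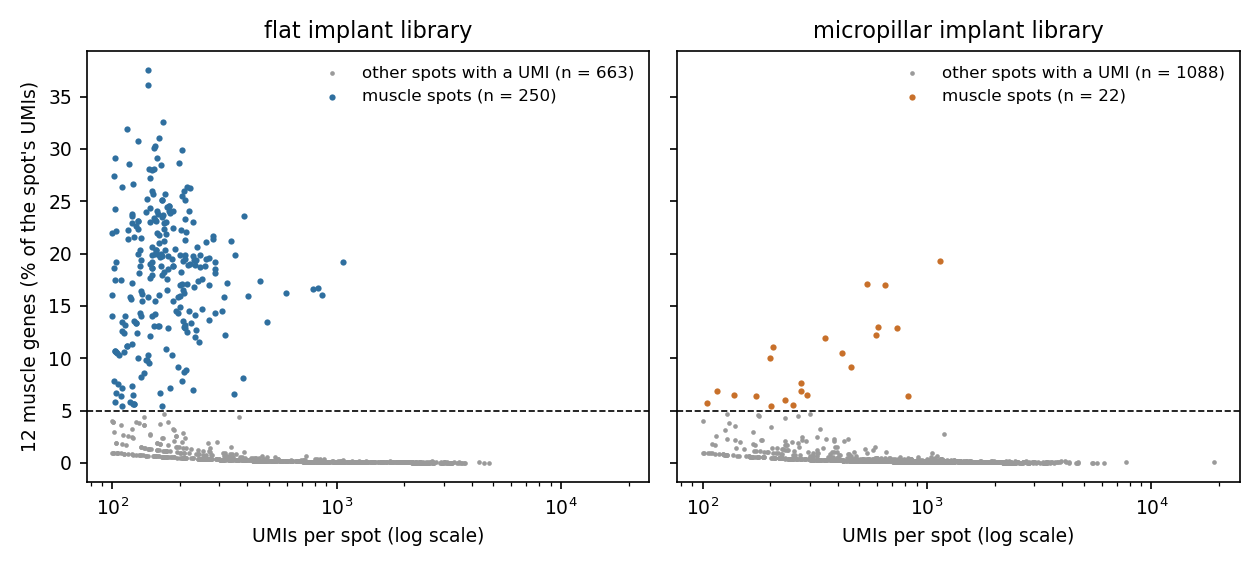
Share of a spot's UMIs from the 12 muscle genes (vertical axis, %) against the spot's UMIs (horizontal axis, log scale) in each library, with 1 point per kept spot that had at least 1 UMI of these genes and a dashed line at 5%. The 250 flat muscle spots reach 37.5% and lie mostly at low depth, while the 22 micropillar muscle spots reach 19.3%.

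In the flat section the threshold fell in a thin part of the distribution, with 24 spots between 2.5% and 5%, 28 between 5% and 10% and 130 between 10% and 20%. The micropillar section had no such dip, with 16, 12 and 10 spots in these ranges. The spots nearest to the line stood at 4.71% outside and 5.42% inside among flat spots, and at 4.69% and 5.45% among micropillar ones. The 12 genes gave 18.0% of UMIs in flat muscle spots against 0.0448% in other flat spots, and 11.7% against 0.0591% in the micropillar library. In the flat library 89.6% of these genes' UMIs lay in muscle spots, whereas in the micropillar library 35.4% did and the rest was scattered over spots below the threshold. None of the 12 genes was found in 72.7% of other flat spots and in 64.2% of other micropillar spots. Both libraries contain 2135 of the same barcodes, which recur by the design of the capture slide, and 1709 of these were kept in both. None belonged to a muscle spot in both. Muscle spots were 9.32% of kept flat and 0.718% of kept micropillar spots, so little or no overlap would arise in any case. The count is a description.

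Facts of the whole sections bear on what the muscle spots are compared with. Outside them, a list of 10 neuron genes made up 0.827% of flat and 0.717% of micropillar UMIs, and a list of bone genes 0.0290% and 0.0363%, so neuron markers outnumbered bone markers in a tissue labelled as bone. Over 10051 genes with at least 20 UMIs in kept flat spots, the median log2 ratio of muscle to other spots was -1.53. Of these genes 10.7% were at least 2-fold higher in muscle spots and 56.9% at least 2-fold lower, leaving out the 12.

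Among the 12 genes, Tnnc2 and Acta1 of the thin filament gave the most UMIs, with no correction for gene length. Levels below are in CPM, the UMIs of a gene scaled to a total of 1000000 over the summed spots, and since the genes chose the spots their levels are a description. Tnnc2, the calcium-binding subunit of fast troponin, stood at 52176 CPM (50144 to 54269) in flat and 43335 CPM (39092 to 47912) in micropillar muscle spots, against 132.7 and 200.6 CPM in other spots. Acta1, skeletal muscle actin, stood at 42489 CPM (40657 to 44382) and 21383 CPM (18436 to 24668), against 105.6 and 123.9 CPM elsewhere. Acta1 was found in 246 of 250 flat and 21 of 22 micropillar muscle spots. After each spot was thinned to 100 UMIs, Acta1 was still found in 96.0% of flat and 81.8% of micropillar muscle spots, against 1.89% and 2.27% of other spots, and unthinned these shares were 98.4%, 95.5%, 8.31% and 11.1%.

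Ckm, the cytosolic creatine kinase that rebuilds ATP during contraction, had 803 UMIs in flat and 132 in micropillar muscle spots, or 16874 and 15014 CPM. Tnnt3, fast troponin T, had 757 and 90 UMIs, and Tnni2, fast troponin I, 472 and 33. Atp2a1, the calcium pump that refills the sarcoplasmic reticulum, had 495 and 65 UMIs. Per UMI of the spots, Tnni2 was thus much lower in the micropillar library and Ckm was similar in both. Mylpf, the fast regulatory light chain, had 331 and 30 UMIs and Mb, the oxygen store myoglobin, 247 and 25. Actn3, the Z-disc actinin of fast fibres, had the fewest UMIs, 46 in flat and 1 in micropillar muscle spots.

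**Figure D2:**
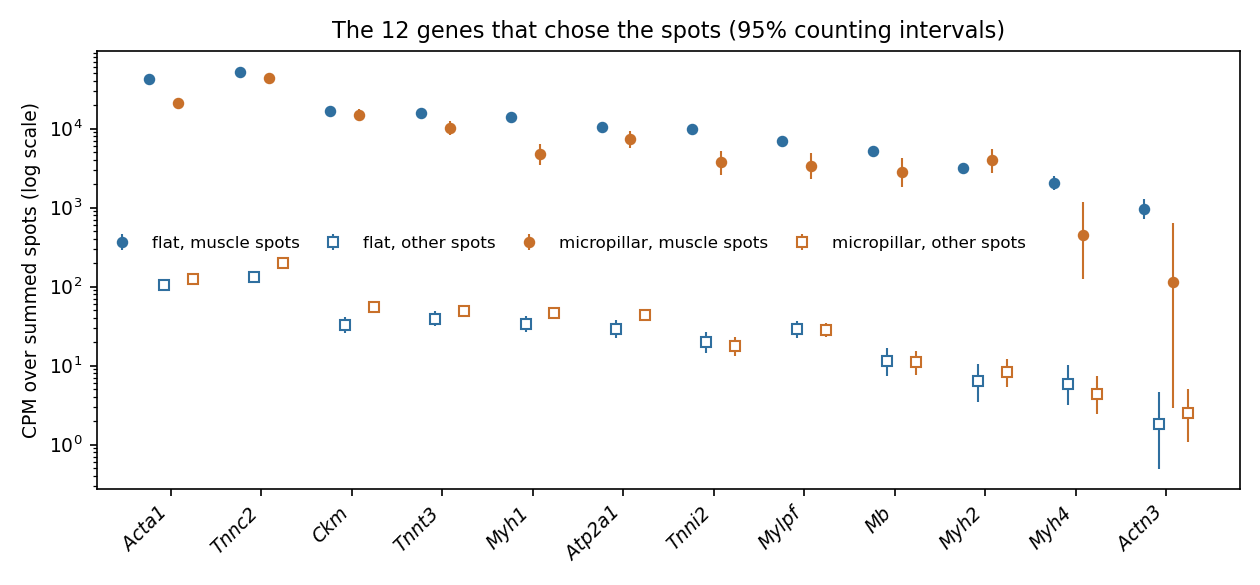
Level of each of the 12 genes (vertical axis, CPM over summed spots, log scale) in muscle spots (filled) and other spots (open) of the flat and micropillar libraries, with exact Poisson 95% intervals. Tnnc2 and Acta1 have the most UMIs, and Myh2 is the 1 gene of the 12 whose level in micropillar muscle spots (3981 CPM) lies above that in flat ones (3173 CPM).

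Outside the 12 genes, muscle spots carried many more contractile genes. With a minimum of 20 UMIs in flat muscle spots, 175 of 271 genes (64.6%) were at least 2-fold higher there than in other flat spots and 13 (4.8%) at least 2-fold lower. This minimum favours genes that are high in muscle spots and the comparison is the one that chose the spots, so the counts are a description. With the same minimum in micropillar muscle spots, 23 of 29 genes (79.3%) were at least 2-fold higher. Of the 175 flat genes, 135 were also at least 2-fold higher in micropillar muscle spots, where no minimum was set, and 5 had no UMI there. The same rule chose the spots of both libraries, and the matching share over all tested genes was not counted. This overlap is therefore a description and no measure of agreement.

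The sarcomere list outside the 12 genes had 33 measured members, which summed to 6.43% of UMIs in flat muscle spots, 60.3-fold (57.1 to 63.6) the share in other flat spots. In the micropillar library they summed to 4.02%, 39.2-fold (35.0 to 43.8). Of these members, 22 had at least 20 UMIs over all kept flat spots and 22 of 22 were at least 2-fold higher in muscle spots, beside 10.7% of all genes, though a member can reach that minimum through muscle spots alone. Ttn, the giant spring that spans the sarcomere, had 319 UMIs in 165 flat spots and 42 UMIs in 13 micropillar spots, 338-fold (246 to 474) and 178-fold (119.9 to 260) the level elsewhere. Myl1, the fast essential light chain, had 289 and 28 UMIs and stood 408-fold (284 to 604) and 194-fold (118 to 313) higher. Tcap, which caps titin at the Z-disc, had 435 and 57 UMIs.

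Several of the genes with the highest flat ratios were Z-disc and thin-filament proteins. Myoz1, a Z-disc protein of fast fibres that binds calcineurin, had 242 UMIs in flat and 11 in micropillar muscle spots. Cmya5, or myospryn, had 102 and 10, Mybpc2, the fast myosin-binding protein C, 102 and 1, and Mybpc1, its slow counterpart, 27 and 4. Lmod2, which elongates thin filaments, had 36 and 5 UMIs, Csrp3, a Z-disc LIM protein, 42 and 7, and Trim54, a ubiquitin ligase of the sarcomere, 26 and 3. Tpm1, the alpha-tropomyosin that many tissues also express, had the most UMIs of the list, 852 and 101, at a ratio of 21.8-fold (20.05 to 23.6) and 14.8-fold (11.98 to 18.02). The remaining genes named by the highest flat ratios were the small heat shock genes Hspb6 (238 and 43 UMIs) and Hspb7 (21 and 8), the lipid droplet gene Fitm1 (45 and 4), Klhl31 (41 and 4) and Tmem182 (26 and 4).

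Genes that couple the nerve signal to calcium release were present as a group. Of 24 members, 19 had at least 20 UMIs in kept flat spots, of which 15 were at least 2-fold higher in muscle spots and 1 at least 2-fold lower, beside 10.7% and 56.9% of all genes. Members of this and the following lists can also reach the minimum through muscle spots alone. Ryr1, the calcium release channel, stood at 2522 CPM in flat and 2502 CPM in micropillar muscle spots, and at 18.1 and 18.3 CPM in other spots, so it was 140-fold (96.9 to 205) and 137-fold (79.6 to 227) higher. Casq1, the fast calsequestrin that stores calcium, had 61 and 5 UMIs, Hrc, another calcium-binding protein of the reticulum, 55 and 7, and Cacng1, a subunit of the voltage sensor, 25 and 6. The member below its level elsewhere was Atp1b1, a sodium pump subunit with 16 UMIs in flat muscle spots and 3747 in other flat spots. The dystrophin complex list, which ties the fibre's skeleton to the matrix, had 129 and 15 UMIs, 5.46-fold (4.51 to 6.55) and 3.13-fold (1.75 to 5.17) the share elsewhere, led in ratio by alpha-sarcoglycan (Sgca, 27 and 2 UMIs).

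Fuel genes were a large part of each muscle spot. Aldoa, the glycolytic aldolase, stood at 57808 CPM (55667 to 60009) in flat and 27866 CPM (24486 to 31583) in micropillar muscle spots, against 6252 and 6594 CPM elsewhere. It gave 2751 of the 3539 flat UMIs of the glycogen and glycolysis list. Of this list 12 of 15 members with enough UMIs were at least 2-fold higher in flat muscle spots, beside 10.7% of all genes. The muscle forms Pygm (glycogen phosphorylase), Eno3 (enolase) and Pgam2 (phosphoglycerate mutase) had 115, 150 and 120 UMIs in flat and 17, 16 and 16 in micropillar muscle spots, with flat ratios of 185-fold (122 to 288), 166-fold (117 to 240.1) and 119-fold (84.2 to 170.3). Gpi1 at 1.39-fold (1.09 to 1.75) and Pkm at 1.88-fold (1.501 to 2.32) had flat ratios nearer 1 and were among the 3 of 15 members within 2-fold.

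The mitochondrial list gave 3.07% of UMIs in flat and 3.54% in micropillar muscle spots, 6.62-fold (6.26 to 6.99) and 7.03-fold (6.26 to 7.86) the share in other spots, and 15 of 16 members were at least 2-fold higher among flat spots, beside 10.7% of all genes. Ckmt2, the mitochondrial creatine kinase of striated muscle, had the highest flat ratio of all genes outside the 12, with 62 UMIs in flat muscle spots and 4 in the far more numerous other spots, 722-fold (268 to 2732). In the micropillar library it had 13 and 11 UMIs, 425-fold (176 to 1049). The cytochrome oxidase subunits of striated muscle Cox6a2 and Cox8b had 254 and 173 UMIs in flat and 38 and 42 in micropillar muscle spots. Slc25a4, the ADP/ATP carrier, had 446 and 112 UMIs at a ratio of 5.59-fold (5.06 to 6.17) and 6.81-fold (5.60 to 8.21). Cox8a, the subunit most other tissues use in place of Cox8b, went the other way, with 13 UMIs in flat muscle spots and a ratio of 0.189 (0.1004 to 0.323), and in the micropillar library 8 UMIs and a ratio of 0.773 (0.334 to 1.52). Genes of fatty acid use were also high, with Fabp3, the heart and muscle fatty acid carrier, at 81 and 16 UMIs and lipoprotein lipase (Lpl) at 70 and 8.

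The muscle spots carried mainly fast isoforms. Most of the 12 genes that chose them are fast-fibre forms and none is a slow form. Spots of slow fibres could therefore be missed, and the shares below are a description of the chosen spots. Over 4 pairs of fast and slow isoforms outside the 12 genes (Myl1 and Myl3, Casq1 and Casq2, Mybpc2 and Mybpc1, Myoz1 and Myoz2), fast members held 694 of 725 UMIs in flat muscle spots, 95.7% (93.99 to 97.1). In micropillar muscle spots they held 45 of 49, 91.8% (80.4 to 97.7). Slow Mybpc1 gave 27 of the 31 flat slow UMIs and it is also expressed in fast fibres. The slow heavy chain Myh7 had 0 UMIs in muscle spots of both libraries, which allows up to 0.327% and 3.70% of the adult fast heavy chain UMIs. Of the calcium pumps, fast Atp2a1, which is one of the 12 genes and so a description only, had 495 UMIs to 5 of Atp2a2 in flat muscle spots and 65 to 0 in micropillar ones, against 65 to 1986 and 139 to 2704 in other spots.

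Within the fast class, IIX myosin led in both libraries and IIA myosin took a larger share in the micropillar one. The genes lie side by side on chromosome 11 in the order Myh3, Myh2, Myh1, Myh4, Myh8, with 2534 bases between Myh2 and Myh1 and 13453 between Myh1 and Myh4. Myh1 had 668 UMIs in flat and 42 in micropillar muscle spots, Myh2 had 151 and 35, and Myh4 had 98 and 4. Myh1 was thus 72.8% (69.8 to 75.7) of the 3 genes' UMIs in flat muscle spots and 51.9% (40.5 to 63.1) in micropillar ones. Myh2 was 16.5% (14.1 to 19.0) and 43.2% (32.2 to 54.7), and Myh4 10.7% (8.76 to 12.9) and 4.94% (1.36 to 12.2). The paralogues are alike, and 19.7% of 50-base windows of the Myh1 transcript recur in Myh2 and 10.5% in Myh4, so how far counts were split between them is uncertain.

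In both libraries a small number of spots held much of the Myh2 UMIs. Of 35 in the micropillar library, 27 (77.1%) came from 4 spots with at least 3 each. Of 151 in the flat library, 76 (50.3%) came from 18 such spots. In spots with under 3 Myh2 UMIs the share was 17.4% (7.82 to 31.4) in the micropillar library and 9.73% (7.73 to 12.04) in the flat library. Leaving spots out by their Myh2 count lowers the share by construction, so these values are a description. Without the deepest micropillar muscle spot the Myh2 share of that library was 39.7% (28.0 to 52.3). Among spots with a muscle share of 10 to 20% it was 22.9% (19.2 to 27.0) over 130 flat spots and 50.8% (37.9 to 63.6) over 10 micropillar spots. Below the threshold the mixtures were alike, with Myh2 at 13.7% (7.71 to 22.0) in other flat spots and 13.9% (9.29 to 19.7) in other micropillar spots.

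**Figure D3:**
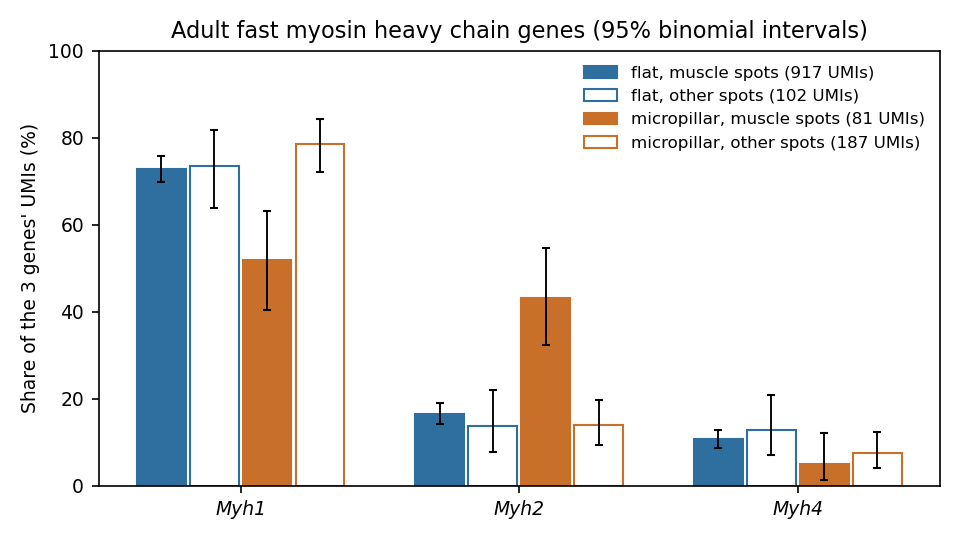
Share of each adult fast myosin heavy chain gene among the UMIs of Myh1, Myh2 and Myh4 (vertical axis, %) in muscle spots (filled bars) and other spots (open bars) of the flat and micropillar libraries, with exact binomial 95% intervals. Myh1 leads in each set of spots, and Myh2 reaches 43.2% in the micropillar muscle spots against 16.5% in the flat ones.

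Muscle spots were grouped by the heavy chain gene with the most UMIs, and some other fibre genes differed between the groups. Of 143 flat muscle spots with at least 3 heavy chain UMIs, 108 were led by Myh1, 15 by Myh2 and 13 by Myh4, with 7 ties. Of 11 such micropillar spots, 7 were led by Myh1 and 4 by Myh2. This grouping was made after the values were seen, and it uses Myh1, Myh2 and Myh4 alone. A spot without a tie always has a leading gene, so these counts show no tendency of their own. The 3 flat groups had similar median muscle shares, 19.8%, 19.9% and 23.0%.

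In the flat library, Mb made up 0.946% of UMIs (0.656 to 1.32) in Myh2-led spots, 0.511% (0.423 to 0.612) in Myh1-led spots and 0.142% (0.0293 to 0.414) in Myh4-led spots. Pvalb, the fast calcium buffer parvalbumin, ran the other way, with 1 UMI in the 15 Myh2-led spots, 66 in the 108 Myh1-led spots and 8 in the 13 Myh4-led spots. As shares of UMIs these are 0.0278% (0.000704 to 0.155), 0.286% (0.221 to 0.364) and 0.379% (0.164 to 0.745). Casq1 had 0, 30 and 12 UMIs and Actn3 1, 21 and 8 in the same order of groups, with intervals that overlap between Myh2-led and Myh1-led spots for both genes. The Pvalb intervals overlap between Myh1-led and Myh4-led spots. Tnni2, another fast-fibre gene, ran the other way, at 1.31% (0.962 to 1.73), 1.09% (0.958 to 1.23) and 0.899% (0.542 to 1.40), with overlapping intervals. Mb, Actn3 and Tnni2, like the heavy chains, are among the 12 genes that chose the spots, so their values are a description.

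Fuel genes also differed between the flat groups, in part within error. The mitochondrial list was 4.12% of UMIs (3.49 to 4.82) in Myh2-led, 3.16% (2.93 to 3.39) in Myh1-led and 2.65% (2.01 to 3.43) in Myh4-led flat spots. The last 2 intervals overlap. The glycolysis list ran in the opposite order, at 6.43% (5.65 to 7.28), 8.03% (7.68 to 8.38) and 11.4% (10.1 to 12.8). Mitochondrial UMIs were therefore 39.1% (34.1 to 44.2), 28.2% (26.5 to 30.0) and 18.9% (14.6 to 23.8) of both lists together. Without Aldoa they were 72.9% (66.2 to 78.9), 64.9% (62.0 to 67.7) and 54.9% (44.7 to 64.8). The Myh1-led interval then overlaps both others, while those of Myh2-led and Myh4-led spots stay apart. Acta1, which all fibres share, differed less, at 4.17%, 4.44% and 5.44%, with overlapping intervals.

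**Figure D4:**
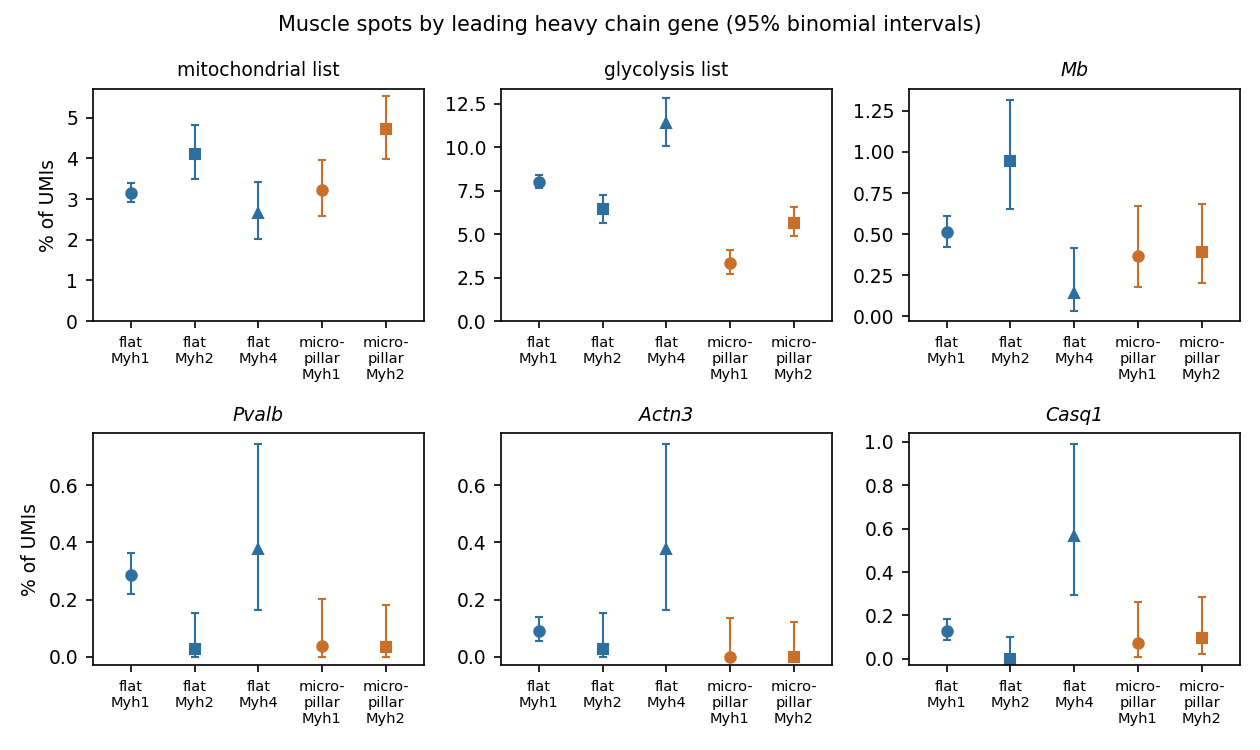
Share of UMIs (vertical axes, %) from the mitochondrial list, the glycolysis list, Mb, Pvalb, Actn3 and Casq1 in muscle spots grouped by library and leading heavy chain gene, with exact binomial 95% intervals. In the flat library Mb and the mitochondrial list are highest in the 15 Myh2-led spots, and the glycolysis list, Actn3 and Casq1 are highest in the 13 Myh4-led spots.

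The order of the glycolysis list was not the same in the micropillar library, where it was 5.66% (4.87 to 6.54) of UMIs in the 4 Myh2-led and 3.37% (2.72 to 4.11) in the 7 Myh1-led spots. The mitochondrial list was 4.72% (3.997 to 5.53) and 3.22% (2.59 to 3.95) there, so both lists were higher in the Myh2-led spots, whose median muscle share was also higher, at 17.1% against 10.5%. The part of the muscle share in this was not tested. Mitochondrial UMIs were 45.5% (39.9 to 51.1) of both lists in the 4 Myh2-led spots and 48.9% (41.4 to 56.4) in the 7 Myh1-led spots. Over all muscle spots they were 46.6% (42.7 to 50.4), against 29.2% (27.9 to 30.5) in the flat library. The gap was present at matched muscle share, with 48.0% (43.5 to 52.5) and 33.3% (31.6 to 35.1) among spots at 10 to 20%. The gap was smaller without Aldoa, at 73.5% (69.0 to 77.7) and 64.9% (62.9 to 66.9) over all muscle spots. Among spots at 10 to 20% the shares without Aldoa were 74.4% (69.2 to 79.1) and 68.3% (65.9 to 70.7), with overlapping intervals. In other spots the libraries stood close together, at 35.1% and 33.7%.

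Between the libraries, with all muscle spots summed, those of the micropillar section had less of the fast glycolytic genes and more collagen. Over 352 genes with at least 20 UMIs in muscle spots of both libraries together, 30 (8.52%) were at least 2-fold higher in the micropillar library and 64 (18.2%) at least 2-fold lower, around a median log2 ratio of -0.12. Of the 12 genes, 11 were lower, 5 of them at least 2-fold, beside 18.2% of all genes. Myh2 was higher, but without the deepest micropillar spot its log2 ratio was 0.15 (-0.49 to 0.75). Lower values were common, since the median of all genes was itself negative. Of 20 sarcomere genes with enough UMIs, 18 were lower and 5 at least 2-fold lower, beside 18.2% of all genes at least 2-fold lower. The share of all genes lower by any amount was not counted, so these counts are a description. The median of the sarcomere genes was -0.50, which is -0.37 relative to all genes. It was -0.13 with the 12 genes at 10% of UMIs, which is -0.031 relative to all genes, and -0.24 with 6 marker genes in place of the 12, which is -0.18 relative to all genes. It was 0.13 when counts were taken per UMI of the 12 genes, where the median of all genes was 0.50.

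The lower genes were uneven in size. Mybpc2 had 102 UMIs in flat and 1 in micropillar muscle spots, a log2 ratio of -4.24 (-9.55 to -1.73), and Actn3 had 46 and 1, at -3.09 (-8.42 to -0.54). Myh4 stood at -2.18 (-4.08 to -0.78), Pvalb at -2.26 (-4.17 to -0.86), Myoz1 at -2.02 (-3.04 to -1.16), Tnni2 at -1.40 (-1.96 to -0.89) and Aldoa at -1.05 (-1.25 to -0.86). Ckm, Csrp3 and Ryr1 were close to the median of all genes at -0.17 (-0.45 to 0.10), -0.15 (-1.55 to 1.02) and -0.01 (-0.74 to 0.65). Slc25a4 at 0.44 (0.13 to 0.74) and Cox8b at 0.39 (-0.13 to 0.89) stood above it.

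Since micropillar muscle spots had a lower muscle share, some of these genes and others were set side by side among spots at 10 to 20%. That range was chosen after the values were seen. There Tnni2 stood at -1.45 (-2.20 to -0.78), Myoz1 at -1.998 (-3.47 to -0.83), Pvalb at -2.24 (-5.32 to -0.31) and Myh1 at -1.14 (-1.73 to -0.60). Mybpc2 had 42 UMIs in 130 flat and 0 in 10 micropillar spots. In the same spots Ttn at -0.10 (-0.70 to 0.45), Atp2a1 at -0.12 (-0.59 to 0.33) and Ckm at 0.22 (-0.10 to 0.53) had intervals that include 0. Matching on the sum of the 12 genes constrains their ratios to offset each other, so for Tnni2, Myh1, Myh4, Actn3, Atp2a1 and Ckm these are relative values.

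Other genes named by the lowest ratios had few UMIs. Fhl3, a LIM protein of muscle, had 43 in flat and 1 in micropillar muscle spots, and Jph2, Trdn and Mypn, of the calcium release unit and the Z-disc, had 20, 22 and 21 in flat and 0 in micropillar ones. With 3 counts as the floor, these 3 were at least 1.23-fold, 1.35-fold and 1.29-fold lower, but the upper ends of the log2 intervals of Jph2 and Mypn, 0.13 and 0.06, lie above 0. Rex1bd (28 and 0 UMIs) and the mitochondrial dehydrogenase gene Idh3a (24 and 0) were at least 1.72-fold and 1.48-fold lower.

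The 8 genes named by the highest ratios were Col3a1, Comp, Fn1, Bgn, Sparc, Col6a2, Cox8a and Mucl2. Col3a1, type III collagen, had 61 UMIs in each library, which is 1282 CPM (980.5 to 1647) in flat and 6938 CPM (5307 to 8912) in micropillar muscle spots, a log2 ratio of 2.44 (1.90 to 2.97). Comp, a matrix protein of cartilage and tendon, had 17 and 18 UMIs at 2.52 (1.48 to 3.56), Fn1, fibronectin, 33 and 21 at 1.78 (0.92 to 2.62), Bgn, biglycan, 16 and 15 at 2.34 (1.22 to 3.45), Sparc 10 and 10 at 2.44 (1.02 to 3.86) and Col6a2 12 and 9 at 2.02 (0.60 to 3.39). Cox8a also stood higher, at 1.74 (0.26 to 3.12). Mucl2 had 0 UMIs in flat and 24 in micropillar muscle spots, at least 43.3-fold higher, but it also had 1489 UMIs in other micropillar spots and 1 in other flat spots.

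Muscle spots therefore held connective tissue as well as fibres, to a degree that differed between the libraries. The fibroblast and endomysium list made up 0.960% of UMIs in flat and 2.76% in micropillar muscle spots, 1.81-fold (1.65 to 1.99) and 4.57-fold (4.01 to 5.19) its share in other spots, or 0.86 and 2.19 on the log2 scale. The direction depended on the spots compared. Against other spots of 100 to 500 UMIs the log2 ratio was -1.80 (flat) and -0.030 (micropillar), against collagen-rich spots -3.08 and -1.48, and with each spot given equal weight -0.75 in the flat library. Of the muscle spots, 15 of 250 flat (6%) and 6 of 22 micropillar (27.3%) were themselves collagen-rich. Collagen-rich spots had at least 3% of UMIs from 5 matrix genes, the collagens Col1a1, Col1a2 and Col3a1 with Dcn and Sparc. The part of connective tissue in the lower muscle share of the micropillar spots was not tested.

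The tendon list had 63 and 29 UMIs, 5.83-fold (4.41 to 7.59) and 16.6-fold (11.1 to 24.2) its share elsewhere, with the tendon gene Tnmd at 0 in both libraries and Scx at 3 and 1. The bone list had 59 and 30 UMIs, 4.27-fold (3.22 to 5.58) and 9.41-fold (6.32 to 13.5) its share elsewhere, and osteocalcin (Bglap) gave 38 and 14 of them. In the flat library 7 of its 8 members with enough UMIs were at least 2-fold higher, beside 10.7% of all genes. These ratios also depended on the spots compared. Against collagen-rich spots the tendon list was 0.435-fold (0.326 to 0.572) in flat and 1.85-fold (1.21 to 2.72) in micropillar muscle spots. For the bone list the ratios were 0.365-fold (0.272 to 0.483) and 0.82-fold (0.548 to 1.18). Erythroid UMIs were 117 and 27, and neutrophil and marrow UMIs 4 in 250 flat and 13 in 22 micropillar spots. Marrow genes were thus sparse in the flat muscle spots and relatively more frequent in the micropillar ones, at 0.00841% and 0.148% of UMIs, or 0.534-fold (0.145 to 1.38) and 9.02-fold (4.77 to 15.6) the share elsewhere. Against collagen-rich spots they were 0.0592-fold (0.0159 to 0.155) and 0.842-fold (0.442 to 1.47).

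Spots richer in muscle genes held less of the connective tissue lists. In the flat library the fibroblast list fell from 3.21% of UMIs (2.72 to 3.77) in 28 spots at 5 to 10% to 0.855% in 130 spots at 10 to 20% and 0.494% in 92 spots at 20% or more. The sarcomere list outside the 12 genes ran from 3.15% to 6.49% and 7.27%, and the glycolysis list from 4.06% to 7.07% and 9.08%. The mitochondrial list had its highest value in the middle range, at 1.52%, 3.54% and 2.67%. In the micropillar library the fibroblast list was 5.29% in 12 spots at 5 to 10% and 1.21% in 10 spots at 10 to 20%, and the glycolysis list 3.05% and 4.68%. At 5 to 10% the log2 ratio of micropillar to flat was 0.72 (0.39 to 1.05) for the fibroblast list and 2.31 (1.40 to 3.32) for Col3a1. Among spots at 10 to 20% it was 0.50 (0.087 to 0.90) for the fibroblast list and 0.84 (-0.20 to 1.78) for Col3a1, whose interval includes 0. There Col1a2 at 0.57 (-0.050 to 1.15) and Fn1 at 1.26 (-0.16 to 2.55) also had intervals that include 0, unlike Comp at 3.35 (1.45 to 5.53). Since the lists are shares of 1 total, a rise in one lowers the others. Over the 250 flat muscle spots, Spearman's rho with the muscle share was -0.51 for the fibroblast list and 0.48 for the sarcomere list, and spots share 1 library.

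**Figure D5:**
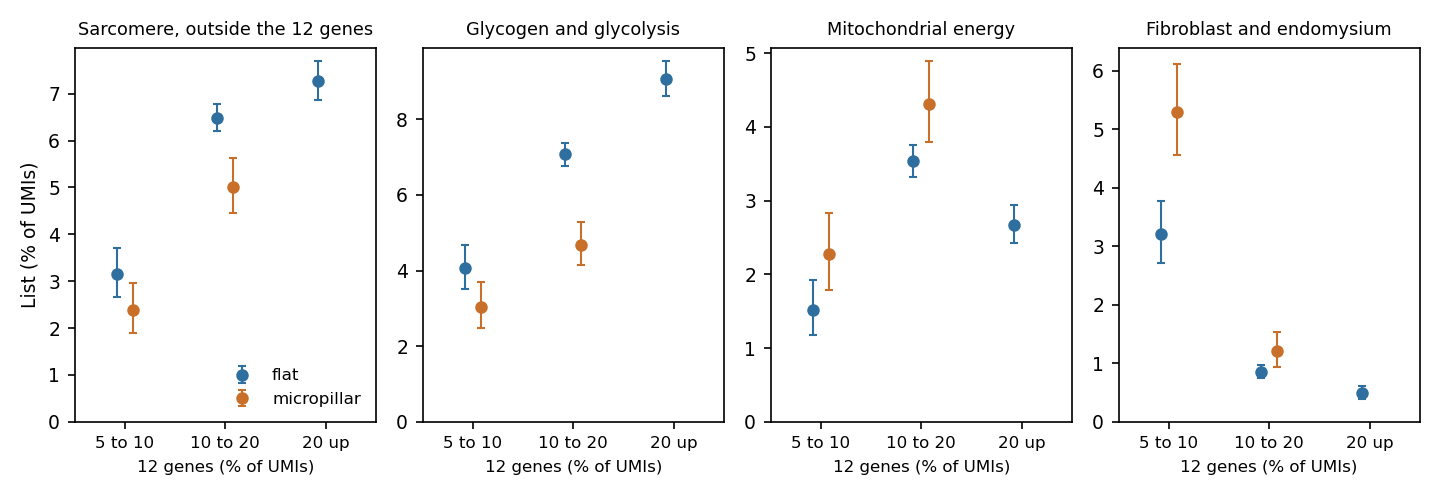
Share of UMIs (vertical axes, %) from 4 gene lists in muscle spots grouped by the share of the 12 muscle genes (horizontal axes, 5 to 10%, 10 to 20% and 20% or more), with exact binomial 95% intervals. The sarcomere and glycolysis lists are higher in richer spots, the fibroblast list falls from 3.21% to 0.494% in the flat library, and no micropillar spot reached 20%.

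Genes of muscle formation, innervation and wasting were scarce. Of the myogenic regulators, Pax7, Myf5 and Myog had 0 UMIs in muscle spots of both libraries, and Myf6, the regulator kept in mature fibres, had 11 in flat and 1 in micropillar muscle spots against 2 and 2 elsewhere. Mef2c gave most of the list, with 45 and 8 UMIs, and it is also high in neurons. The embryonic and neonatal heavy chains Myh3 and Myh8 had 0 and 2 UMIs in flat and 1 and 0 in micropillar muscle spots. The neuromuscular junction list had 27 and 7 UMIs, with Chrna1 at 2 and 0, Musk at 2 and 0 and Rapsn at 0 in both. The muscle-specific ubiquitin ligases of atrophy Trim63 and Fbxo32 had 10 and 9 UMIs in flat and 0 and 1 in micropillar muscle spots, while the atrophy list as a whole was 0.853-fold (0.698 to 1.03) and 0.601-fold (0.336 to 0.992) its share elsewhere. Its members went both ways, so the sum does not describe the ligases. Of 9 with enough UMIs in the flat library, 2 were at least 2-fold higher and 3 at least 2-fold lower, beside 10.7% and 56.9% of all genes. These counts allow low levels that this depth does not show.

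Some markers of other cells were at or near 0, and some lists were raised through genes that fibres also express. The heart list had 1 UMI in flat and 0 in micropillar muscle spots, with Nppa, Myl7 and Myh6 at 0. The pericyte list was 14.5-fold (11.9 to 17.7) its share elsewhere in the flat library, with 109 of its 134 UMIs from desmin (Des), which fibres also make. Likewise Car3 gave 128 of the 156 flat UMIs of the adipocyte list, with Adipoq, Plin1 and Lep at 0. Endothelial genes summed to 17 and 6 UMIs and macrophage genes to 27 and 10.

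Neural genes were low in muscle spots. The neuron list was 0.117-fold (0.0856 to 0.156) and 0.127-fold (0.0548 to 0.250) its share in other spots, with 10 of 10 members at least 2-fold lower in the flat library, where 56.9% of all genes were. Snap25, a synaptic vesicle fusion gene, had 19 UMIs in flat muscle spots and 7795 elsewhere, and after thinning to 100 UMIs it was found in 4% of flat and 0% of micropillar muscle spots against 18.2% and 19.6% of other spots. The 10 genes with the lowest flat ratios were Kif5a, Sult4a1, Cplx2, Sptbn4, Hrh3, Gnao1, Sgip1, Ttyh1, Lingo1 and Disp2, most of them neuronal. Each had 0 UMIs in flat muscle spots, and with 3 counts as the floor they were at least 10.4-fold (Kif5a) to at least 7.12-fold (Disp2) lower than elsewhere. In micropillar muscle spots these genes had 0 UMIs each except Kif5a, Cplx2 and Gnao1 with 1. The astrocyte list was 0.248-fold (0.147 to 0.392) and 0.203-fold (0.0418 to 0.593) its share elsewhere, and the epidermis and hair list 0.185-fold (0.128 to 0.259) and 0.423-fold (0.242 to 0.687).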

How the data were processed

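Spatial transcriptomics was measured in 1 library per group. The authors deposited matrices of raw UMI counts, whole and unnormalised. Space Ranger 2.0.1 made them per the file headers. Cell Ranger 7.2.0 and mm10 are named per the submitters' processing notes, and a directional mRNA kit per the labels' protocols. These sources differ, and they give neither aligner settings nor a probe set. Neither positions nor images entered the work, and no doublet caller was run because a spot is not a cell.

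Spots with at least 100 UMIs were kept (2263345 UMIs flat, 3173632 micropillar). Counts were summed over spots and scaled to CPM. Where a symbol had several rows (11 symbols), that with the most counts stood for it. Genes were ranked by log2 ratios with a pseudocount of 1 CPM, while printed folds are ratios without it, with exact conditional binomial intervals. Shares have exact Clopper-Pearson and sums exact Poisson intervals at 95%, and a group at 0 was set to a floor of 3 counts. Named genes were the 12 genes, isoform pairs, the 20 highest and 10 lowest ratios to other flat spots (at least 20 UMIs in flat muscle spots, or 200 CPM elsewhere), the 8 highest and 8 lowest between libraries, and the most abundant and the extreme members of 27 gene lists. Others named were chosen after their values were seen. Of 361 list genes, 10 are not analysed here because the gene list lacks the symbol, so 4 of the planned isoform pairs outside the 12 genes were used. The members, lists and rules were chosen with earlier results of these data known.

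Scripts ran in Python 3.11.15 (numpy 2.4.6, scipy 1.17.1, pandas 2.3.3, matplotlib 3.10.9) and R 4.3.3 (edgeR 4.0.16 for TMM and DESeq2 1.42.0 for size factors, scaling only, no test). Intervals were tried on simulated counts that held counting error only, the error they assume. That check covers the calculation and not the spread between spots, sections or animals. Alternatives covered the threshold, the depth minimum, scaling, weights, comparison spots and gene minimums.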

Additional observations from a re-analysis of the deposited data

Results flagged for a closer look

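Spots with under 100 UMIs were left out of every comparison, and they carried muscle genes. In the flat library 480 spots were under that depth, and the 12 genes made up 5.12% (4.83 to 5.41) of their 22950 UMIs, with 128 of these spots at 5% or more. In the micropillar library 239 spots were under it, and the 12 genes made up 0.437% (0.339 to 0.554) of 15345 UMIs, with 5 spots at 5% or more. A count of 0 would allow 0.0131% and 0.0196%. The depth minimum therefore removed spots with muscle RNA, more of them flat than micropillar.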

How the results depend on the processing

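Each group has 1 library, so intervals do not cover differences between sections or animals. No paired analysis was possible because each group has 1 library and the labels carry no shared replicate numbers, and no library could be left out. Depth limits genes under about 20 UMIs in the 22 micropillar muscle spots. Of 90 alternative values, 50 stayed within 1 interval or 1.5-fold of the value given, 34 moved beyond it and 6 changed direction; where a cause is not named by the setting itself, the cause was not tested. Alternatives with 5 to 10% spots, without the deepest spot and per UMI of the 12 genes were chosen after seeing the data.

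The flat share of muscle spots was 11.97% with a minimum of 50 UMIs per spot and 3.67% with 200. The micropillar share was 1.24% with the 12 genes at 2.5% and 0.326% at 10%. The flat count of genes at least 2-fold higher was 95 with 200 UMIs per spot, 626 with 5 UMIs per gene, 1783 with no minimum and 6 in spots at 5 to 10%. The micropillar count was 12 at 10%, 13 with the 6 marker genes at 2.5%, 181 with 5 UMIs per gene, 1781 with no minimum and 6 in spots at 5 to 10%. The fast isoform share over 9 pairs was 99.3% flat and 98.9% micropillar, and 100% in micropillar spots at 5 to 10%.

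The log2 ratio of the fibroblast list in flat spots was 1.28 at 2.5%, 0.44 at 10%, 1.02 with 200 UMIs per spot, 1.14 per total without the 12 genes and 2.60 in spots at 5 to 10%. It reversed to -0.75 with equal spots, -1.80 against other spots of 100 to 500 UMIs and -3.08 against collagen-rich spots. In micropillar spots it was 2.68 at 2.5%, 0.99 at 10%, 1.32 with the 6 marker genes, 1.32 with equal spots and 3.13 at 5 to 10%, and it reversed to -0.030 and -1.48 against those other spots.

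The sarcomere median of micropillar over flat was -0.78 at 2.5%, -0.13 at 10%, -0.71 with 200 UMIs per spot, -0.24 with the 6 marker genes, -0.81 with equal spots, -0.73 without the deepest spot, -1.48 with TMM and -1.35 with DESeq2 size factors. Per UMI of the 12 genes it reversed to 0.13. TMM, size factors and that scaling moved the all-gene median to -1.11, -0.97 and 0.50, and relative to it the list stood at -0.38, -0.38 and -0.37, against -0.031 with the 12 genes at 10% and -0.18 with the 6 marker genes.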

Other observations

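Among genes tied to muscle only loosely, Car3, carbonic anhydrase 3 of muscle and fat, had 128 UMIs in 85 flat muscle spots and 7 in 7 micropillar ones, a log2 ratio of micropillar to flat of -1.76 (-3.10 to -0.67). Atp2a2, the calcium pump of slow fibres and most other cells, was 8.53-fold (3.65 to 26.3) lower in flat muscle spots than in other flat spots. Hbb-bs, a beta-globin gene, had 48 UMIs in flat and 19 in micropillar muscle spots, at 1.10 (0.25 to 1.89) between the libraries.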
